A study of Rattus norvegicus with 6 samples.

Results

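AP-1 and immediate early genes were examined in the bulk RNA-seq of 6 mammary tumors of F344 (Fischer) rats. The 10 genes were chosen by symbol: the FOS family genes Fos, Fosb, Fosl1 and Fosl2, the JUN family genes Jun, Junb and Jund, the related factor Atf3, and the immediate early genes Egr1 and Ier2. Each symbol matched 1 row among the 26195 named rows of the count table, and all 10 genes were among the 13139 genes with enough counts to be tested. Tumors 102, 107 and 116 came from older rats, obtained at 19 to 21 months and given the carcinogen at 21 to 23 months of age. Tumors 157, 158 and 167 came from younger rats, obtained at 6 to 8 weeks and given it at 4 months. Every rat in both groups carried a pellet with 50 mg MPA (medroxyprogesterone acetate, a progestin) that released for 90 days, and received DMBA (a carcinogen that is activated to bind DNA) once by gavage at 65 mg per kg. Each tumor is a single library, and the younger tumors are all that formed in that age group while the older ones were those with enough tissue, which limits both groups as samples of their age. No untreated mammary gland was analysed here.

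AP-1 is a dimer of basic leucine zipper proteins. A FOS protein must pair with a JUN protein to bind DNA, JUN proteins can also pair with each other, and ATF3 can pair with JUN. Immediate early genes need no new protein to be transcribed: growth factor and stress signals act through MAP kinases on factors already bound at their promoters, so Fos, Fosb, Egr1 and Ier2 mRNA rises within minutes and is then quickly degraded. Fosl1 and Fosl2 are later members of the family, Jund is present in resting cells, and in mammary carcinoma AP-1 is known for its part in proliferation, invasion and the response to hormones and growth factors.

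The promoters of members that moved together and of the member that moved against them are shown for reference, as the 250 bases before the gene's start in RefSeq (assembly GRCr8), 5′ to 3′ on the gene's strand. The motifs searched on both strands were TGACGTCA (the cAMP response element, CRE), TGANTCA (the AP-1 site, TRE), GCGTGGGCG (an EGR site), TATAAA (known as the TATA box) and the CArG box bound by serum response factor. None of these can be read from the same bases as another in the sequences below, and capitals mark every match. Jund is at chr16:18769772-18770021 on the minus strand, Ier2 at chr19:40399123-40399372 on the plus strand, Junb at chr19:40080876-40081125 on the plus strand and Fosl1 at chr1:212183635-212183884 on the plus strand.
Jund: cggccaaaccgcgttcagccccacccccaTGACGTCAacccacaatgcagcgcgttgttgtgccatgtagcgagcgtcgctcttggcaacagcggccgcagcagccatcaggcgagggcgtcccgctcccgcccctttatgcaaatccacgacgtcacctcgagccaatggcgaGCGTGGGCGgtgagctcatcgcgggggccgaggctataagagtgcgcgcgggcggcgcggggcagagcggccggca
Ier2: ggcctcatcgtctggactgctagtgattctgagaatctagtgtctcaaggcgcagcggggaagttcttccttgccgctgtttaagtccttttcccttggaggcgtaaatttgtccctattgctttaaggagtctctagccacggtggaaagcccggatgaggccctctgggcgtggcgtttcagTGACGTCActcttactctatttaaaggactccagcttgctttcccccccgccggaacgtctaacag
Junb: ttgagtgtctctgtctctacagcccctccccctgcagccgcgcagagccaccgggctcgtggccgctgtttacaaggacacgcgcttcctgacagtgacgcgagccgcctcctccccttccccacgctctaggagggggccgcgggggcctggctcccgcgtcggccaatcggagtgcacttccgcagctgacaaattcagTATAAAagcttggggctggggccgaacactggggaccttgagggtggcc
Fosl1: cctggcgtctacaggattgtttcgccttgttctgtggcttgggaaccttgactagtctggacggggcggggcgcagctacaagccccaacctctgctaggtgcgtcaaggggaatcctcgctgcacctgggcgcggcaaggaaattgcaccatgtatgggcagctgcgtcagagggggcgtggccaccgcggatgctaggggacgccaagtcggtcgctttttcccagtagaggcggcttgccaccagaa

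Jund held a CRE from 221 to 214 bases before its start and an EGR site from 76 to 68 bases before it. In Ier2 a CRE lay from 66 to 59 bases before the start, and Junb had a TATA box from 49 to 44 bases before it. Egr1, whose sequence is not shown, had 2 CArG boxes, from 105 to 96 and from 83 to 74 bases before its start. Over all 33469 promoters of this length, 1.59% held a CRE, 0.478% an EGR site, 1.5% a CArG box, 12.9% a TATA box and 6.34% a TRE. Fosb, whose RefSeq entry starts inside the gene and is not shown, held a TATA box on the other strand from 180 to 175 bases before that start. No searched motif was found in these bases of Fosl1 or Fosl2. RefSeq promoters were matched for 7 of the 10 genes, without Fos, Jun and Atf3. These matches describe letters, and no binding was measured.

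Totals over named genes ran from 3394451 to 6383983 counts, so that 3 counts, taken as the floor, correspond to between 0.528 and 1.03 CPM (counts-per-million values after TMM scaling by edgeR), which covers counting error only. All 5 epithelial markers in the table (Epcam, Cdh1, Krt7, Krt8 and Krt18) were detected. Their sum was lower in every older tumor, at 1159 to 1267 CPM, than in any younger one, at 1489 to 1764 CPM. The part of this difference in the age contrasts below was not tested. Tumor 102 stood apart: 25.7% of the genes tested had their highest level in it and 27.3% their lowest, where any other tumor held the highest of at most 18.7% and the lowest of at most 18.2%. Results are therefore given with and without it. Levels are in CPM and are compared for 1 gene between tumors, never between genes, since the counts were not divided by transcript length.

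Tumor 102, from an older rat, had the highest level of 9 of the 10 genes and the lowest level of Fosl1. It was at least 2-fold above the median of the other 5 tumors for 8 genes, where this held for 12.9% of all genes tested. Younger tumor 158 came second for 6 genes. The order of tumor 102 first and tumor 158 second was found in 6.16% of all genes tested, and tumor 158 was the highest of the remaining 5 tumors in 22.8%. Older tumor 116 had the lowest level of 5 genes, where 10.9% of all genes were lowest in it. The mean of the log2 CPM of the 10 genes, each centred on its own mean, was 1.14 in tumor 102 and 0.17 in tumor 158, and between -0.43 and -0.16 in the other 4.

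**Figure D1:**
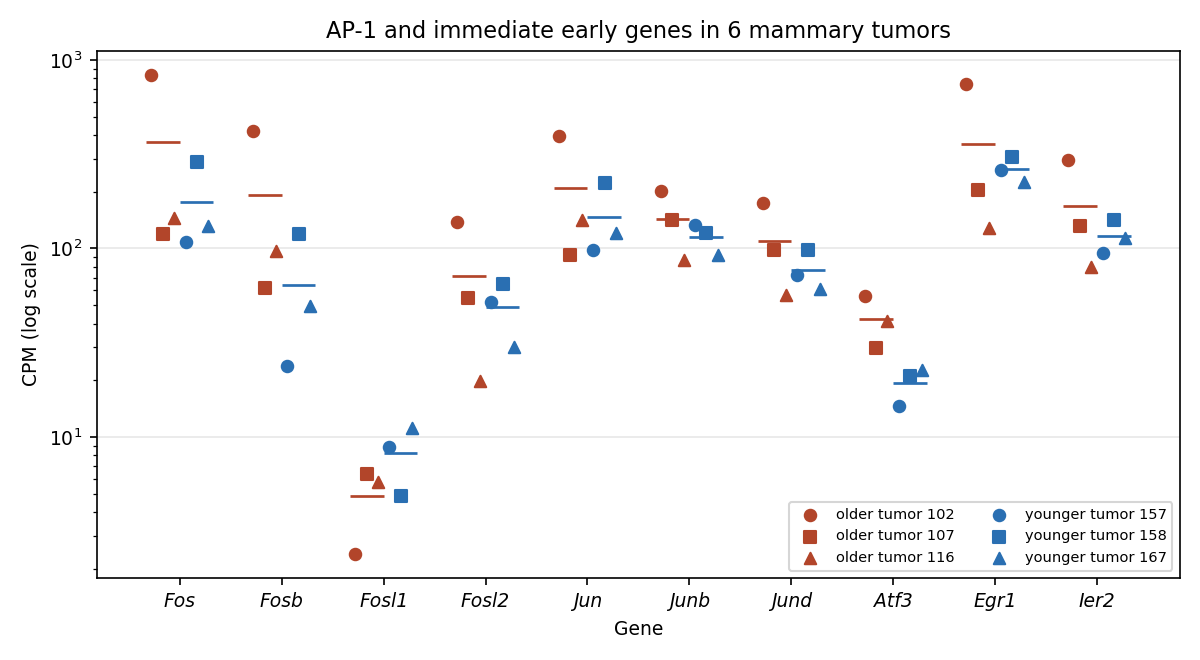
CPM on a log scale for each of the 10 genes in the 6 tumors, older in red and younger in blue, with 1 symbol for each tumor and a line at each age group's mean (n = 3). Tumor 102 is the highest point for 9 genes and the lowest for Fosl1, and only Atf3 has every older tumor above every younger one.

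Between older and younger tumors, 0 of the 10 genes differed by the quasi-likelihood test of edgeR (Benjamini-Hochberg adjusted p under 0.05 over 13139 genes), as did 0% of all genes tested. At an unadjusted p under 0.05 there was 1 of the 10 genes, Atf3, against 8.59% of all genes. DESeq2 called 0 of the 10 at an adjusted p under 0.05 and 2.48% of all genes. At an unadjusted p under 0.05 DESeq2 had 2 of the 10 genes, Atf3 and Fosb, against 10% of all genes. By sign alone 9 genes were higher in older tumors and 1 was lower, where 49.6% of all genes were higher, with a median log2 fold change of 0.52 against -0.0038 over all genes. Without tumor 102 the signs turned for 7 genes, leaving 2 above 0 and 8 below, and the median was -0.24 against -0.029 over all genes. Such a turn from higher to lower was found for 22.5% of the 6523 genes that were higher in older tumors with all 6. By an unadjusted p under 0.05 with edgeR there was again 1 of the 10 genes without tumor 102, Atf3, against 7.28% of all genes.

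Fos, the prototype immediate early gene and the partner of JUN proteins in the classical AP-1 dimer, was at 835 CPM in tumor 102, 119 in tumor 107 and 145 in tumor 116. In younger tumors it was at 108 CPM (157), 289 (158) and 132 (167). Tumor 102 exceeded the median of the others 6.31-fold, whereas tumors 107 and 116 fell between the lowest and the highest younger tumor. The log2 fold change of older over younger tumors was 1.05 (standard error, SE, 0.78, adjusted p = 0.82, edgeR) with all tumors and -0.43 (SE 0.47, adjusted p = 1, edgeR) without tumor 102. The groups' means were 367 ± 406 CPM and 176 ± 98.2 CPM (SD, n = 3 each), so the spread among older tumors was larger than the difference.

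Fosb, which encodes FOSB and, by splicing, a shorter form that lacks its end, had the widest range of the 10 genes. Its level was 421 CPM in tumor 102, 62.0 in tumor 107 and 96.9 in tumor 116, against 23.9 (157), 119 (158) and 49.4 (167) in younger tumors. From the lowest tumor to the highest it spanned 17.6-fold, and the groups overlapped only through younger tumor 158. Gene counts do not separate the splice forms. The fold change was 1.59 on the log2 scale (SE 0.82, adjusted p = 0.694, edgeR), and without tumor 102 it was 0.29 (SE 0.64, adjusted p = 1, edgeR).

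Fosl1, which encodes FRA1, a FOS protein without the C-terminal activation domain that accumulates when ERK signaling lasts, ran the other way. It was the member with the fewest reads, from 7 counts in tumor 102 to 50 in tumor 157. Older tumors held 2.40 (102), 6.34 (107) and 5.78 (116) CPM, and younger tumors 8.80 (157), 4.86 (158) and 11.1 (167). Tumor 102 was 2.64-fold below the median of the others, and the groups overlapped through tumor 158, which was the lowest of the younger tumors. The log2 fold change was -0.74 (SE 0.52, adjusted p = 0.807, edgeR), and it stayed below 0 with any tumor left out, between -1.01 and -0.44.

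Fosl2, which encodes the related FRA2, had tumors 102 and 158 first and second like Fos, but its lowest level was in tumor 116, where Fos was the third highest. It was at 139 CPM in tumor 102, 54.5 in tumor 107 and 19.9 in tumor 116, and at 52.1 (157), 64.7 (158) and 30.2 (167) in younger tumors. The lowest and the highest level were thus both in older tumors, 6.96-fold apart. With all tumors the log2 fold change was 0.53 (SE 0.64, adjusted p = 0.91, edgeR), and without tumor 102 it was -0.41 (SE 0.51, adjusted p = 1, edgeR).

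Among the JUN family, Jun had the widest range. Its level was 396 CPM in tumor 102, 92.3 in tumor 107 and 142 in tumor 116, against 98.6 (157), 222 (158) and 121 (167) in younger tumors. Tumor 158 was second, as for Fos, and the lowest tumor was an older one, 107. The log2 fold change of 0.51 (SE 0.57, adjusted p = 0.902, edgeR) became -0.34 (SE 0.43, adjusted p = 1, edgeR) without tumor 102.

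Junb, whose product is a weaker activator than JUN and can oppose it, moved least. It was at 203 (102), 141 (107) and 87.1 (116) CPM in older tumors and at 133 (157), 121 (158) and 92.2 (167) CPM in younger ones. Tumor 102 exceeded the median of the others by only 1.68-fold, and tumor 107 and not tumor 158 came second. Its log2 fold change was 0.31 (SE 0.34, adjusted p = 0.898, edgeR) with all tumors and -0.023 (SE 0.31, adjusted p = 1, edgeR) without tumor 102.

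Jund, the JUN protein of resting cells, was at 174 (102), 98.2 (107) and 57.0 (116) CPM in older tumors. Younger tumors had 72.7 (157), 97.8 (158) and 60.7 (167) CPM, so that tumor 107 lay just above and tumor 116 just below their range. The fold change, 0.51 on the log2 scale (SE 0.41, adjusted p = 0.848, edgeR), fell to -0.0018 (SE 0.34, adjusted p = 1, edgeR) once tumor 102 was left out.

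Atf3, a stress-induced factor of the ATF/CREB family that represses promoters as a homodimer, was the exception. Every older tumor, at 56.2 (102), 29.6 (107) and 41.1 (116) CPM, lay above every younger one, at 14.6 (157), 21.1 (158) and 22.6 (167). It was the only 1 of the 10 genes whose age groups did not overlap, as were 6.51% of all genes with older tumors higher and 5.58% with older tumors lower. Older tumors averaged 42.3 ± 13.3 CPM and younger ones 19.4 ± 4.24 (SD, n = 3 each), a log2 fold change of 1.12 (SE 0.33, unadjusted p = 0.00987, adjusted p = 0.364, edgeR). This does not pass the threshold over all genes. The groups still did not overlap without tumor 102, where the fold change was 0.86 (SE 0.32, adjusted p = 0.586, edgeR), and leaving out any 1 tumor gave between 0.86 and 1.32. With DESeq2 its adjusted p was 0.103, the lowest among all settings, which reached up to 0.813. Summed macrophage markers also separated the age groups, at 230 (102), 332 (107) and 180 (116) CPM against 83.6 to 129 in younger tumors. So did summed T cell markers, given below beside Batf3. Adipocyte markers (19.9 to 176 CPM against 6.14 to 18) and B or plasma cell markers (4.53 to 21.7 against 1.72 to 4.14) did so too. Summed mammary epithelial markers were lower in every older tumor, at 1159 to 1267 against 1489 to 1764 CPM. The part of these cells in the Atf3 value was not tested.

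Egr1, a zinc finger factor induced through serum response factor and ERK, was at 745 (102), 205 (107) and 129 (116) CPM in older tumors and at 260 (157), 306 (158) and 224 (167) CPM in younger ones. The younger tumors stayed close together (263 ± 41.0 CPM, SD, n = 3), and the older ones lay on either side of them. With tumor 102 the log2 fold change was 0.45 (SE 0.61, adjusted p = 0.918, edgeR). Without it both remaining older tumors were below every younger one and the change was -0.67 (SE 0.32, adjusted p = 0.781, edgeR). Without that tumor 8.89% of genes had both older tumors below and 9.81% above all younger ones. Among the 10 genes it was 1 in each direction, Egr1 and Atf3.

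Ier2, which encodes a small nuclear protein induced by serum, was at 295 (102), 131 (107) and 79.8 (116) CPM in older tumors and at 94.7 (157), 141 (158) and 113 (167) CPM in younger ones. Both groups' spreads, 169 ± 112 and 116 ± 23.2 CPM (SD, n = 3 each), overlapped. Its log2 fold change was 0.54 (SE 0.46, adjusted p = 0.856, edgeR) with all tumors and -0.15 (SE 0.32, adjusted p = 1, edgeR) without tumor 102.

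**Figure D2:**
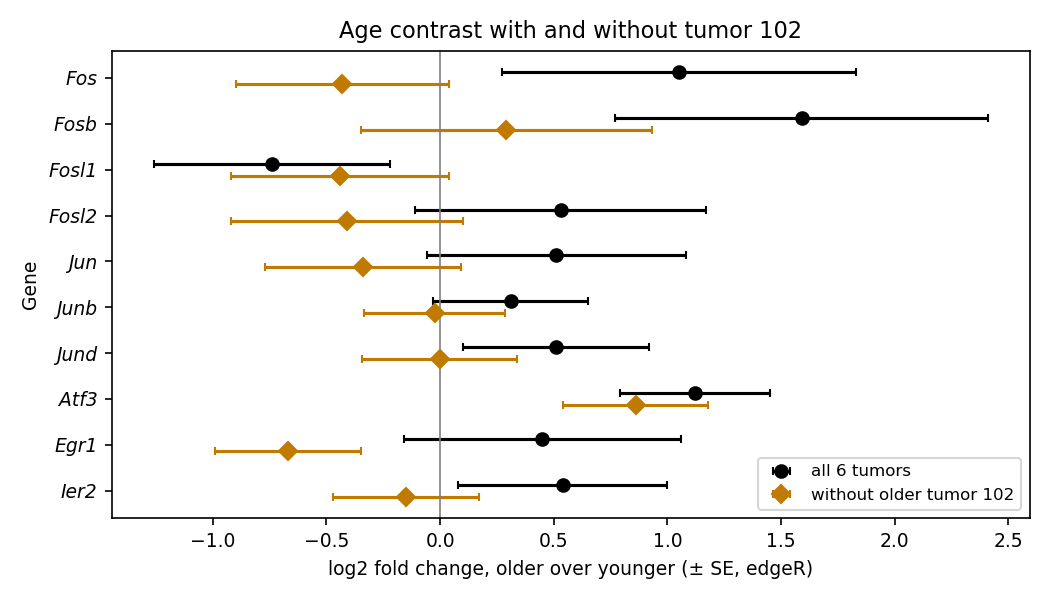
Log2 fold change of older over younger tumors with its standard error from edgeR, for all 6 tumors (circles) and without older tumor 102 (diamonds). Leaving out tumor 102 moved 7 genes across 0, from a median over the 10 genes of 0.52 to -0.24, while Atf3 and Fosb stayed above 0 and Fosl1 below.

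Co-variation was measured over the 6 tumors by Pearson's r and Spearman's rho of log2 CPM for each of the 45 pairs of the 10 genes, with two-sided exact permutation tests adjusted over the pairs. The median r was 0.73, where the median over all 86310091 pairs of genes tested was near 0, and 17 pairs were above 0.8, where 4.3% of all pairs were. All 36 pairs without Fosl1 were positive (median 0.80), and all 9 pairs with Fosl1 were negative, from -0.92 to -0.68. With 6 tumors, 3 pairs passed 0.05 after adjustment by Pearson's r and 0 by Spearman's rho (20 and 7 pairs had an unadjusted p under 0.05). The share of all pairs of genes with such p-values was not computed, so these counts have no background beside them.

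Much of this rested on tumor 102. Without it the median r fell to 0.19, 6 pairs were above 0.8, as were 5.93% of all pairs of genes in the same 5 tumors, and of the 36 pairs without Fosl1 26 were positive. The median r of the pairs with Fosl1 moved from -0.78 to -0.45, and 8 of the 9 stayed negative. Fos and Jun, the partners of the classical dimer, had r = 0.98 (rho = 0.94, exact permutation p = 0.00278 and 0.0167, adjusted p = 0.0417 and 0.125), and r was 0.96 without tumor 102 and 0.89 without tumors 102 and 158. Fos and Fosb had r = 0.93 (rho = 0.94, exact permutation p = 0.00278 and 0.0167, adjusted p = 0.0417 and 0.125), and 0.78 and 0.88 in the same smaller sets. Fosl2 and Jund had r = 0.96 (rho = 0.94, exact permutation p = 0.00278 and 0.0167, adjusted p = 0.0417 and 0.125), with 0.90 without tumor 102 and 0.88 without tumors 102 and 116.

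The pairs that stayed high in the 5 other tumors fell into different sets of genes, a description made after the values were seen. Fos, Jun and Fosb kept r between 0.77 and 0.96 with each other. Fosl2, Junb and Jund kept r between 0.84 and 0.91, and Ier2 with Jund 0.84 and Egr1 with Fosl2 0.86. The other pairs of Egr1 and Ier2 with these genes and with each other were lower, from 0.55 for Junb with Ier2 to 0.77 for Fosl2 with Ier2, and with tumor 116 left out as well the pairs of Egr1 or Ier2 ran from 0.023 for Junb with Egr1 to 0.73 for Jund with Ier2. Between Fos, Fosb and Jun on one side and Fosl2, Junb, Jund, Egr1 and Ier2 on the other, r in the same 5 tumors ran from -0.28 for Fosb with Junb to 0.53 for Fos with Ier2. Older tumor 116 showed the split most plainly, with Fos, Fosb and Jun the third highest of the 6 tumors and Fosl2, Junb, Jund, Egr1 and Ier2 at their lowest. Atf3 went against Egr1 without tumor 102 (r = -0.82), where r had been 0.31 with all tumors.

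**Figure D3:**
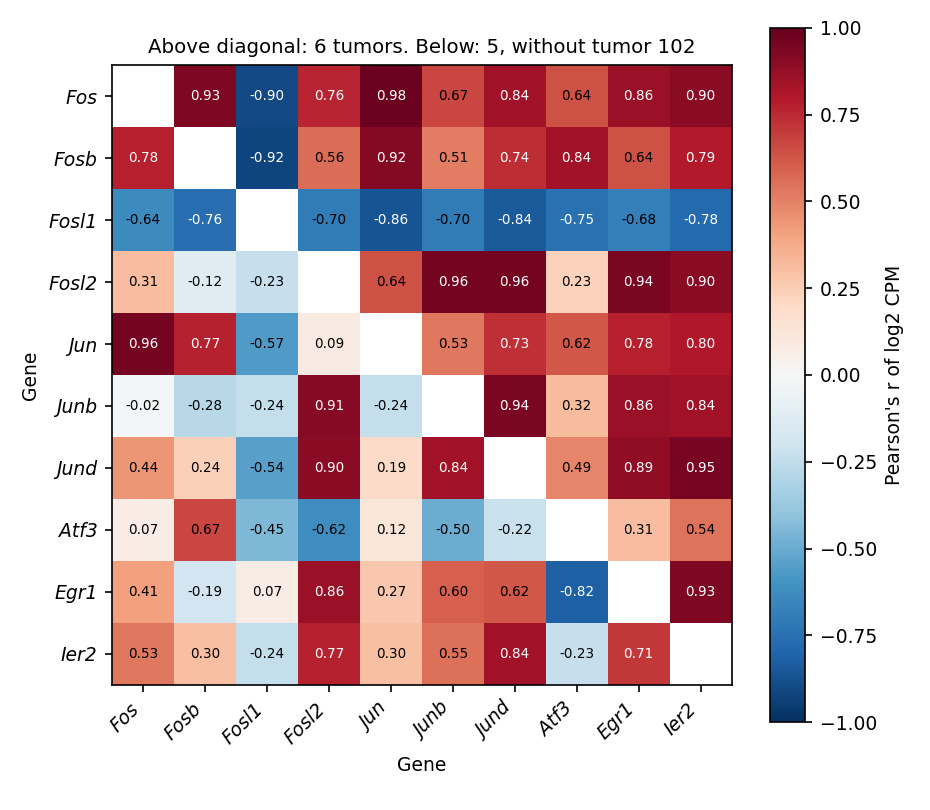
Pearson's r of log2 CPM for each pair of the 10 genes, over 6 tumors above the diagonal and over 5 tumors, without tumor 102, below it. Above the diagonal all pairs are positive except those with Fosl1. Below it Fos, Fosb and Jun stay together, as do Fosl2, Junb and Jund.

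The genes most like the 10 were named by the r of their log2 CPM with the mean of the 10 over 6 tumors, among 13129 other genes. These were Synj1 (r = 0.996), Metrnl (0.992), Klf9 (0.992), Calcoco1 (0.991), Pnpla2 (0.990), Marchf6 (0.990), Brd1 (0.987), Dcaf6 (0.987), Cpeb2 (0.986) and Sec63 (0.985). None of them is in the lists of immediate early or AP-1 genes, and 2.73% of the genes compared had an r over 0.9. Synj1, which encodes the phosphatase synaptojanin, was at 159 CPM in tumor 102 and 92.0 in tumor 158, and between 60.0 and 72.9 CPM in the other 4. Klf9, a factor induced by glucocorticoids and progesterone, was at 177 CPM in tumor 102 and 66.5 in tumor 158, and between 37.7 and 41.9 CPM in the other 4. Without tumor 102 the r of these similar genes, Synj1 to Sec63, with the mean of the AP-1 and immediate early genes was between 0.90 and 0.99. They were picked by their r over all 6 tumors, so a high r in a part of the same tumors is largely built in. The share of all genes with such an r without tumor 102 is not given. These are descriptions over 6 points of which tumor 102 is the farthest.

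Count ratios between members do not depend on how libraries are scaled, and 9 were computed. Fos counts were 348 times Fosl1 counts in tumor 102, 18.9 times in tumor 107 and 25.1 times in tumor 116. In younger tumors this ratio was 12.2 in tumor 157 and 59.4 in tumor 158, and it was lowest in tumor 167. The ratio was thus highest in tumor 102 and second in tumor 158, an order already fixed by the levels of Fos and Fosl1 given above. In tumor 102 it rests on 7 Fosl1 counts. Fosb relative to Fos was 0.503 (102), 0.519 (107) and 0.668 (116) in older tumors and 0.223 (157), 0.412 (158) and 0.373 (167) in younger ones. It was the only 1 of the 9 ratios whose age groups did not overlap, chosen after its values were seen. Among the ratios of all other tested genes to Fos, 0.7% did not overlap with older tumors higher and 1.43% with older tumors lower. The smallest p that a two-sided exact permutation test of 3 tumors against 3 allows is 0.1.

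The other genes of the pathway were taken as lists by their known role, and 0 of their genes passed an adjusted p of 0.05 with edgeR. Of the 25 other immediate early genes 23 were tested, 17 above and 6 below 0, with a median log2 fold change of 0.55 that became -0.061 without tumor 102. At an unadjusted p under 0.05 there were 2 of them higher and 1 lower in older tumors, against 5.3% and 3.29% of all genes. Sgk1, a kinase induced by serum and glucocorticoids, was at 292 (102), 267 (107) and 145 (116) CPM in older tumors and at 56.0 (157), 151 (158) and 65.1 (167) in younger ones. Its fold change was 1.37 on the log2 scale (SE 0.45, adjusted p = 0.424, edgeR), with an overlap of tumors 116 and 158. Arc, a synaptic immediate early gene present here at low counts, was lower in all older tumors at 1.71 (102), 2.94 (107) and 1.20 (116) CPM. Younger tumors had 14.4 (157), 3.60 (158) and 11.1 (167) CPM of Arc, a log2 fold change of -2.30 (SE 0.65, adjusted p = 0.342, edgeR). Klf2 had 1.97 (adjusted p = 0.558, edgeR) and Ccn2, a matrix protein induced by YAP and TGF-beta, -1.08 (adjusted p = 0.629, edgeR), and without tumor 102 they had 0.85 and -1.73.

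Of the 13 other bZIP partners 11 were tested, 1 of them (Mafk) as 2 rows, with 7 of the 12 rows above 0 and a median log2 fold change of 0.086. Batf3, a JUN partner of dendritic cells and T cells, was at 7.88 (102), 11.1 (107) and 4.59 (116) CPM in older tumors and at 1.58 (157), 1.62 (158) and 0.737 (167) CPM in younger ones. The groups did not overlap, and the log2 fold change of 2.53 (SE 0.55, adjusted p = 0.271, edgeR) was 2.52 without tumor 102. The sum of 5 T cell markers moved with it, at 16.1, 85.8 and 19.9 CPM in older tumors 102, 107 and 116 and from 4.50 to 8.63 CPM in younger ones, and Cd3d was at or near 0 in all 6. The sum of 6 macrophage markers also moved with it, at 230, 332 and 180 CPM in the same older tumors and from 83.6 to 129 CPM in younger ones. The adipocyte, B or plasma cell and mammary epithelial sums given beside Atf3 separated the age groups as well. The part of these cells in the Batf3 value was not tested, and in bulk tissue fewer cells of a type and less RNA per cell cannot be told apart. Maf had 1.50 (adjusted p = 0.587, edgeR) and Batf -0.38 (adjusted p = 0.944, edgeR), and without tumor 102 they had 0.54 and 0.074.

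Upstream of AP-1, 14 of 16 kinases and factors were tested, 5 above and 9 below 0 (median -0.10 on the log2 scale). Map2k1, which encodes the ERK kinase MEK1, was lower in all older tumors, at 37.0 (102), 41.2 (107) and 43.7 (116) CPM against 87.5 (157), 63.0 (158) and 52.8 (167) CPM. Its log2 fold change was -0.74 (SE 0.26, adjusted p = 0.471, edgeR). Srf, the factor that binds CArG boxes, was at 67.5 to 86.9 CPM in older and 87.5 to 114 CPM in younger tumors, a difference of -0.35 (adjusted p = 0.786, edgeR). Map2k7, a JNK kinase, was higher in all older tumors, at 65.2 to 112 against 54.4 to 63.7 CPM. Its difference was 0.50 (adjusted p = 0.714, edgeR, and 0.22 without tumor 102), and Elk4, a partner of SRF, had 0.39 (adjusted p = 0.754, edgeR). Of the 14, age groups did not overlap for 2 with older tumors higher and 3 with older tumors lower, against 6.51% and 5.58% of all genes. Of 11 feedback genes 9 were tested, 6 above and 3 below 0 (median 0.35, and -0.14 without tumor 102). Dusp5, a nuclear ERK phosphatase, had 0.76 (adjusted p = 0.605, edgeR) and Zfp36l2, an mRNA decay factor, 0.79 (adjusted p = 0.809, edgeR), which turned to -0.14 without tumor 102. Dusp8 had -0.70 (adjusted p = 0.785, edgeR) and Dusp16 -0.24 (adjusted p = 0.871, edgeR).

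Known targets of AP-1 were split in direction. Of 19 targets 17 were tested, 11 above and 6 below 0, with a median of 0.028 on the log2 scale that became -0.36 without tumor 102. At an unadjusted p under 0.05 there were 4 lower and 0 higher in older tumors, against 3.29% and 5.3% of all genes. Vegfa, the angiogenic factor that hypoxia also induces, was at 185 (102), 142 (107) and 139 (116) CPM against 505 (157), 392 (158) and 261 (167) CPM. Its log2 fold change was -1.31 (SE 0.31, adjusted p = 0.315, edgeR). Timp1, a metalloproteinase inhibitor, was at 11.0, 2.72 and 10.2 CPM in older tumors and between 20.9 and 21.4 CPM in younger ones (log2 fold change -1.42, SE 0.50, adjusted p = 0.469, edgeR). For both of these targets tumor 102 was below all younger tumors. Spp1, which encodes osteopontin, had 1.77 (adjusted p = 0.601, edgeR) and Plau, the urokinase gene, 0.52 (adjusted p = 0.706, edgeR, and 0.31 without tumor 102), and tumor 102 was the highest of the 6 for both.

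Genes at their highest in tumor 102 were counted in each of these lists. They were 15 of 23 other immediate early genes, 5 of 9 feedback genes, 5 of 12 rows of bZIP partners, 5 of 14 upstream genes and 6 of 17 targets, where 25.7% of all genes were. At their lowest in tumor 102 were 1 each of the other immediate early, feedback and bZIP lists, 4 of 14 upstream genes and 4 of 17 targets, where 27.3% of all genes were. Of heat shock genes, which protein damage induces through HSF1, 0 of 9 were highest in tumor 102 and 5 were lowest in it. Their summed level was 819 CPM in tumor 102 and from 1126 to 2009 CPM in the others. By sign 1 of the 9 was above 0 and 8 were below, with a median log2 fold change of -0.37 (-0.22 without tumor 102). Among them Hsph1 had a log2 fold change of 0.16 (adjusted p = 0.978, edgeR, and 0.64 without tumor 102), Hspb1 -0.78 (adjusted p = 0.658, edgeR) and Hspa1b -1.02 (adjusted p = 0.73, edgeR).

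**Figure D4:**
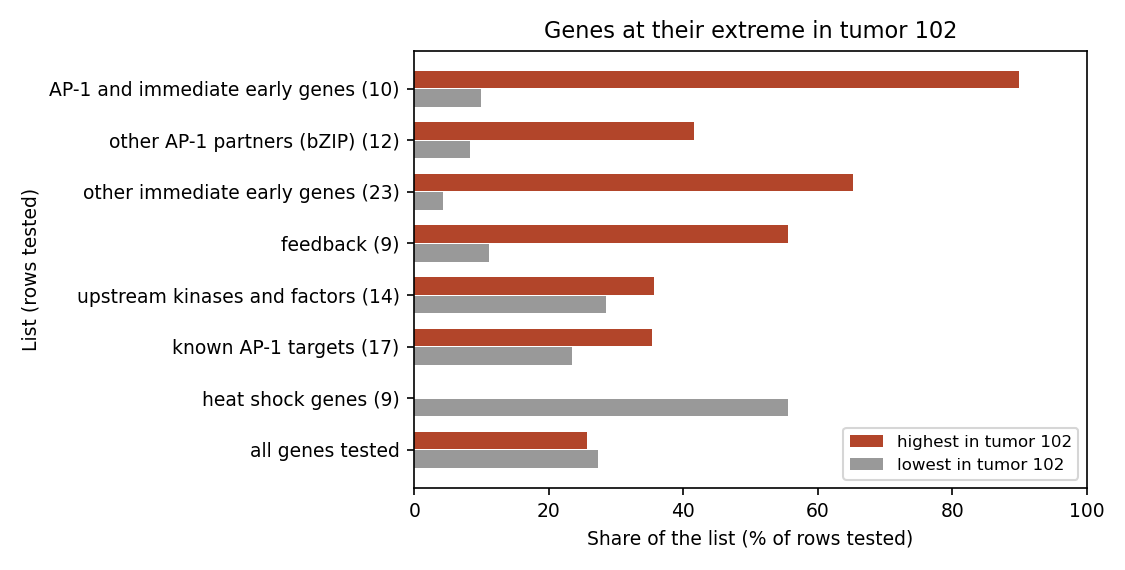
Percentage of the tested rows of each list that have their highest (red) or lowest (grey) level of the 6 tumors in tumor 102, with the number of rows in parentheses. The 10 AP-1 and immediate early genes have 9 at their highest there and the 9 heat shock genes 0, against 25.7% of all genes.

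Other properties of tumor 102 moved with these genes, and their part in the levels was not tested. Its summed level of 5 adipocyte markers was 176 CPM, where the other tumors had 6.14 to 33.5 CPM, and all 3 tested markers of that list were highest in it. Fibroblast markers summed to 1302 CPM (118 to 1031 in the others) and endothelial markers to 374 CPM (60.9 to 311). Of these lists, 3 of 6 tested fibroblast markers and 1 of 4 tested endothelial markers were highest in tumor 102. The 13 mitochondrially encoded mRNAs summed to 101300 CPM (53731 to 75465 in the others), and basal or myoepithelial markers were lowest in it, at 428 CPM against 709 to 2606. Tumor 158, second for 6 genes, did not share the adipocyte level (13.9 CPM) or the mitochondrial sum (56918 CPM). Its milk protein genes summed to 169874 CPM, and those of tumor 102 to 156398, against 5596 to 118145 CPM in the other 4 tumors. Neutrophil markers, from 0.737 to 8.47 CPM, and skeletal muscle markers, from 5.98 to 54.1 CPM, were not highest in tumor 102. B or plasma cell markers (1.72 to 21.7 CPM) were highest in tumor 116, with S100a9, Cd79b, Ms4a1, Ckm and Myh4 at or near 0.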

How the data were processed

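Bulk RNA-seq of 6 flash-frozen tumors was available as deposited read counts per gene without normalization. Per the labels and the study's methods, the authors depleted ribosomal RNA (the molecule label says polyA), sequenced paired reads of 150 bases (labels: 100), checked reads with FastQC 0.11.7, trimmed them with Trimmomatic 0.38, aligned them with STAR 2.7.9a, marked duplicates with Picard 2.18.12 and counted with HTSeq 0.13.5. The submitters' processing notes name the build mRatBN7.2. The annotation, the strand setting and whether duplicates were counted are not given in the sources used here. Without strand, reads of a gene and of an antisense partner cannot be told apart, and counts of duplicates would add to short abundant transcripts.

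Rows without a gene name (4367 of 30562, 2.17% to 3.64% of counts) were left out, and 0 sample columns were unused. filterByExpr chose the genes to test and TMM scaled the libraries. The age contrast was tested with edgeR 4.0.16's quasi-likelihood test in R 4.3.3 without covariates, adjusted by Benjamini-Hochberg over 13139 genes at 0.05; standard errors come from the fold change and its F statistic. For log2 CPM the prior count was 2. Tests were checked on simulated data. p-values measure the spread between tumors. Alternatives were DESeq2 1.42.0, limma-voom (limma 3.58.1), other scalings, filters and prior counts, and leaving out each tumor; keeping rows without a name was added after the data were seen. Named were all 10 genes, the 2 smallest p in each direction of each list (1 heat shock gene had a positive fold change, and 1 gene that the rule names is not reported here) and the 10 genes most like the 10. The genes and lists were chosen with earlier results of these data known, and the TATAAA motif and count ratios after values were seen. Promoters were credited to RefSeq (GRCr8), a build other than that of the counts, so no gene coordinates were joined. Levels were not compared between genes for lack of transcript lengths. Of the lists, Dusp1, Krt14, Krt19, Trp63, Cldn5, Cd4 and Mylpf were not analysed here. The count table holds Trp63 under the symbol Tp63, which the sum of basal or myoepithelial markers leaves out. Its level was 22.3 CPM in tumor 102 and 65.6 to 155 CPM in the others.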

Additional observations from a re-analysis of the deposited data

How the results depend on the processing

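No paired analysis was possible because no rat or tumor number occurs in both age groups. The count of the 10 genes past the threshold was 0 under every setting run. The count over all genes was 0 with edgeR and limma-voom and 326 with DESeq2 (by unadjusted p under 0.05, edgeR gave 1129 and DESeq2 1319), and the cause was not tested. Without older replicate 102 the sign turned for Fos (-0.43), Fosl2 (-0.41), Jun (-0.34), Junb (-0.023), Jund (-0.0018), Egr1 (-0.67) and Ier2 (-0.15), and the median over the 10 genes, 0.52 with all tumors, was -0.24. With each of the other tumors left out this median was between 0.37 and 0.86, and no gene turned: log2 fold changes then ran from 0.79 to 1.61 for Fos, 0.27 to 0.97 for Fosl2, 0.28 to 0.93 for Jun, 0.17 to 0.57 for Junb, 0.36 to 0.81 for Jund, 0.34 to 0.84 for Egr1 and 0.40 to 0.87 for Ier2. With limma-voom the median was 0.34, and Fos had 0.63, Fosl2 0.097, Jun 0.33, Egr1 0.066 and Ier2 0.35. The median r over pairs, 0.73, was 0.49 with Spearman's rho and from 0.19 (without older replicate 102) to 0.85 with a tumor left out. Scaling did not turn any of the 10 genes, and the median fold change of all genes shifted by -0.071 with library totals and by less with DESeq2 size factors. With DESeq2, 1 bZIP partner (Batf3, adjusted p = 0.01) and 1 AP-1 target (Vegfa, adjusted p = 0.0115) passed the threshold, and with at least 10 counts in every tumor Fosl1 was not tested. Depth limits Fosl1, at 7 counts in tumor 102, most.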
